A study of Homo sapiens with 6 samples.

Results

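The C/D box small nucleolar RNAs (snoRNAs) are the genes of the expression table whose symbol starts with SNORD. The table held 389 of them among 57445 genes, and the 57 with at least 1 TPM (transcripts scaled for gene length and to a fixed library total) in at least 3 of the 6 libraries were followed here, which is 14.7% of the family against 28.8% of all genes. The members were chosen by their measured TPM, with earlier results of these data known. The filter did not use the difference between the conditions, but a gene could pass it through the libraries of 1 condition alone. MDA-MB-231 is a triple-negative breast cancer cell line that carries the receptor ROR1. Cells infected with a lentiviral vector for a control hairpin (shCTL, 3 libraries) were set against cells infected with the vector for a Ror1 hairpin (shRor1, 3 libraries), to ask which transcripts follow the level of this receptor. Both groups came from the pGIPZ vector series and both were selected with 2 µg/ml puromycin, so that neither is the untreated line. The sample labels describe the control as cells with an empty vector, whereas the methods of the study describe a non-silencing hairpin. The header of the 3 shCTL columns also names DMSO, which neither that of the shRor1 columns nor the labels do, so a solvent treatment of the controls, if there was one, and the hairpin cannot be told apart. Whether each condition was 1 clone or a mixed population, and whether the 3 libraries came from separate cultures, is not given in the sources. The p-values below thus rest on the spread between these libraries, which may be technical. Those of limma, the linear-model fit used, also borrow variance from other genes.

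C/D box snoRNAs are short nucleolar RNAs that guide the methylation of the ribose in ribosomal RNA. Each carries a C box near its 5′ end and a D box near its 3′ end, which bind the proteins SNU13, NOP56, NOP58 and the methyltransferase fibrillarin (FBL), and the bases before the D box pair with the RNA to be methylated. In human cells most of them are cut out of the introns of host genes, many of which code for ribosomal proteins. A few, among them U3 (SNORD3), U8 (SNORD118) and U14 (SNORD14), take part in the cutting of the ribosomal precursor, U14 beside a role as a methylation guide.

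The sequences of the 3 members with the highest mean level are given first, with the C box letters TGATG and the D box letters CTGA in capitals, read 5′ to 3′ on the strand of the gene from GRCh37. SNORD36A lies at chr9:136217311-136217383 on the plus strand, SNORD104 at chr17:62223443-62223512 on the plus strand and SNORD86 at chr20:2636743-2636828 on the plus strand.
SNORD36A: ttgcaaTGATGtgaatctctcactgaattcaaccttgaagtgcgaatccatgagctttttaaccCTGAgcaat
SNORD104: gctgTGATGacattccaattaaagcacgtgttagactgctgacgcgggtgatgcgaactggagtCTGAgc
SNORD86: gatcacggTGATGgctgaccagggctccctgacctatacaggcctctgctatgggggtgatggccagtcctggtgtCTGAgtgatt

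The next set holds 5 members from the 10 with the smallest p-values in the comparison of the conditions, all with a lower mean in shRor1. Of the other 5, SNORD104 is printed above and SNORD12C with its relatives, while SNORD9 and SNORD97, both with a higher mean, and the long SNORD3B-2 are not printed. SNORD53_SNORD92 lies at chr2:29150849-29150926 on the plus strand, SNORD101 at chr6:133136446-133136518 on the plus strand, SNORD11 at chr2:203157772-203157859 on the plus strand, SNORD37 at chr19:3982505-3982570 on the minus strand and SNORD118 (U8) at chr17:8076772-8076905 on the minus strand. No TGATG was found in the first 20 bases of SNORD118.
SNORD53_SNORD92: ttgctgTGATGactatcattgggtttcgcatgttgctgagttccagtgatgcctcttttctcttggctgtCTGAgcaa
SNORD101: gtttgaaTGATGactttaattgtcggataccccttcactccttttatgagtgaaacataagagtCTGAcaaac
SNORD11: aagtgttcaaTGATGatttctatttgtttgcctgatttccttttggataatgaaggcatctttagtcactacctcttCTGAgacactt
SNORD37: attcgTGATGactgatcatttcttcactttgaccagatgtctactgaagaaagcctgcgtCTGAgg
SNORD118: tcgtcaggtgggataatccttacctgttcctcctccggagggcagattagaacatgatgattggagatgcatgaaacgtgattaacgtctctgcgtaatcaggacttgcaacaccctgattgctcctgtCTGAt

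The last set shows related members. SNORD12C, SNORD12B and SNORD12 lie in this order in the lncRNA gene ZFAS1 on chromosome 20, at chr20:47895477-47895565, chr20:47896856-47896946 and chr20:47897220-47897309 on the plus strand, and are shown because they are related in sequence and share a host.
SNORD12C: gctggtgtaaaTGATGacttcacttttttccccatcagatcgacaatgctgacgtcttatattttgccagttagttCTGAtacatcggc
SNORD12B: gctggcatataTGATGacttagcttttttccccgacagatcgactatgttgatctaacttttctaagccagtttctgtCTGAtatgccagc
SNORD12: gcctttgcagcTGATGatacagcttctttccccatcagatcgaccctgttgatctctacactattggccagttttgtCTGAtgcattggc

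The boxes were searched as exact letters on the strand of each gene, TGATG in the first 20 bases and CTGA in the last 15 bases. Of the 57 members, 47 (82.5%) held TGATG, 49 (86%) held CTGA and 46 (80.7%) held both. Among the 332 C/D box genes below the filter, 57.2% held both, and among the 399 H/ACA snoRNA genes (symbol SNORA), the other large class of guide RNAs, 0 held both, 1.5% held TGATG and 3.51% held CTGA in these windows. The annotated genes were 65 to 791 bases long with a median of 85.0, and 44 were under 100 bases. Over the 1485 pairs among the 55 members other than the U3 genes the median identity was 48.9%, and the closest pairs were SNORD103A and SNORD103B at 100%, SNORD83A and SNORD83B at 78.9%, SNORD14A and SNORD14E at 77.2% and SNORD12B and SNORD12C at 74.2%. The alignment did not penalize mismatches and no sequences outside the family were aligned, so the median is no measure of kinship. SNORD104 and SNORD66, of different names, reached 64.1%, against 64.8% for SNORD12 and SNORD12B and 62.3% for the SNORD19 genes. The 2 genes named SNORD19, both in GNL3, and the 2 named SNORD63, both in HSPA9, are separate loci, so the 57 genes carry 55 symbols. SNORD103A and SNORD103B also had the same value in every library, from 0.83 to 2.07 TPM, and count as 1 measurement listed under 2 names.

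Before the results, the libraries themselves are described. The columns name the condition but no replicate, so the libraries are called the first, the second and the third in the order of the table. ROR1 was at 15.42, 13.49 and 20.56 TPM in shCTL against 9.34, 11.93 and 14.85 TPM in shRor1. The means differed by -0.43 ± 0.20 (SE) on the log2 scale, but the third shRor1 library lay above the second shCTL library and the limma adjusted p was 0.984. The cell line's own markers were present, with VIM at 2398.72 to 2919.77 TPM and CD44 at 359.19 to 534.17 TPM. Of the luminal markers, ESR1 did not exceed 0.21 TPM and PGR did not exceed 0.01 TPM, while KRT18 was at 456.78 to 502.91 TPM, ERBB2 at 26.55 to 34.9 TPM, EPCAM at 12.58 to 15.8 TPM, GATA3 at 3.83 to 4.69 TPM and CDH1 at 0.8 to 1.47 TPM. TFF1 was at 15.26 TPM in the second shRor1 library and at 2.05 to 6.14 TPM in the others.

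The read counts behind the values are not in the table, but the low values keep a trace of them. For genes of at most 150 bases, values of up to 20 steps were near whole multiples of a step that depends on gene length and library, within 0.1 of a step for 314 of 388 values (80.9%), where 20% would be near if they were spread evenly. The steps were estimated from these same values. One step would be 1 read if whole reads were counted, and for a gene of 76 bases it was worth 0.65, 0.71 and 0.85 TPM in shCTL and 0.71, 1.04 and 0.84 TPM in shRor1. The second shRor1 library thus had the coarsest step, with a resolution of 63.0% of that of the first shCTL library. A member of this family had a median of 4.58 steps per library, 28 of the 54 short members averaged under 5 steps and 3 averaged over 20, so a difference of a few TPM in most members is a difference of a few steps.

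The family was listed at a low level in these libraries. Whether the reads came from the mature snoRNAs or from longer transcripts that contain them was not tested. The levels, and values of 0, thus need not be those of the mature RNAs. The median of the member means was 2.77 TPM, against 12.97 TPM over the 16554 genes that passed the same filter. Only 5 members had a mean above 10 TPM and 22 had a mean below 2 TPM. At least 1 TPM in all 6 libraries was reached by 24 members, and 20 members were listed at 0 in at least 1 library. Together the 57 members took between 0.0241% and 0.0361% of all TPM in a library.

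The summed level of the members was 298.5, 361.22 and 305.88 TPM in shCTL and 306.84, 268.1 and 240.7 TPM in shRor1. The group means were 321.9 ± 34.3 TPM (SD, n = 3) and 271.9 ± 33.2 TPM (SD, n = 3), so the shRor1 mean was 84.5% of the shCTL mean, and the groups overlapped because the first shRor1 library exceeded 2 of the shCTL values. Few genes carried this sum. The 5 members with the highest mean held 37.6% to 53.8% of it, and without them the ratio was 95.9%. Without SNORD3A alone the means were 289.6 ± 4.66 and 261.1 ± 35.4 TPM (SD, n = 3 each), a ratio of 90.2%.

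Other short RNAs moved in their own ways across the 6 libraries. Their sums are over all genes of the class without the filter, 399 for the H/ACA snoRNAs and 1899 for the U1 to U12 small nuclear RNAs. All 389 C/D box genes together were at 344.6 ± 29.1 TPM in shCTL and 292.7 ± 33.2 TPM in shRor1 (SD, n = 3 each). The summed H/ACA snoRNAs were at 190.7 ± 20.4 TPM in shCTL and 173.9 ± 31.5 TPM in shRor1 (SD, n = 3 each), a ratio of 91.2%. By library they were at 202.84, 202.13 and 167.18 TPM in shCTL and 209.72, 150.42 and 161.61 TPM in shRor1. The C/D box members without SNORD3A were at 286.62, 287.28 and 295.0 TPM against 296.58, 261.05 and 225.77 TPM. Both sums were thus highest in the first shRor1 library and lower in the other shRor1 libraries than in any shCTL library. The U1 to U12 small nuclear RNAs of the spliceosome summed to 357.29, 717.52 and 362.88 TPM in shCTL and 351.65, 336.08 and 367.15 TPM in shRor1. The second shCTL library was thus high for the small nuclear RNAs, as it was for SNORD3A. Fewer cells with a transcript and less transcript per cell cannot be told apart in such bulk samples.

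**Figure D1:**
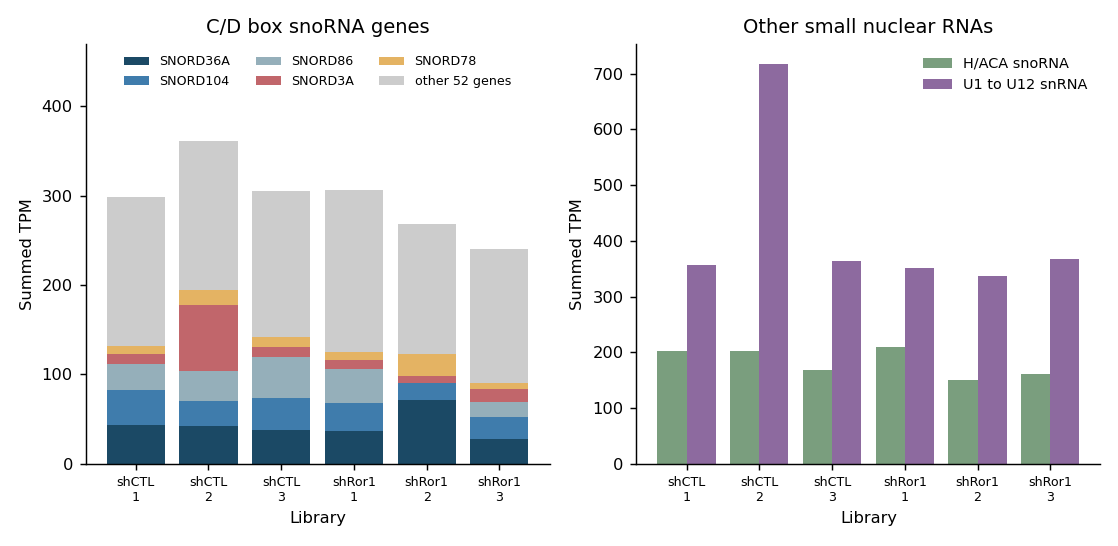
Summed TPM in each of the 6 libraries (x axis, numbered in table order), on the left for the 57 C/D box snoRNA genes with the 5 highest members as separate stacked segments, and on the right for the H/ACA snoRNAs and the U1 to U12 small nuclear RNAs. The right panel sums all 399 H/ACA and 1899 small nuclear RNA genes without the filter. The SNORD3A segment is tall only in the second shCTL library (73.94 TPM), the library whose small nuclear RNAs sum to 717.52 TPM, and the SNORD86 segment is missing from the second shRor1 library.

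No member passed the comparison of the conditions. With limma on log2(TPM + 1) and Benjamini-Hochberg adjustment over all 16554 genes, 0 members and 0 genes in all were called at 0.05, a background of 0.0%, and the adjusted p of the members ran from 0.984 to 0.997. At an unadjusted p below 0.05 stood 10 members (17.5%), 3 with a higher and 7 with a lower mean in shRor1, against 2.85% of all tested genes (2.31% higher and 0.544% lower). These p-values rest partly on variance borrowed from genes of similar level. The members varied more than the genes in their range of level (median residual SD 0.553 against 0.167 on the log2 scale). The p-values of variable members may thus be too small, and no excess is read from these shares. Without the first shCTL library the count of 10 became 5, and without the third it became 6. The 2 groups of 3 libraries did not overlap for 6 members (10.5%), 1 above and 5 below, against 7.78% of all tested genes (6.48% above and 1.3% below). Both counts include SNORD9 and SNORD53_SNORD92, which passed the filter only through the condition where they were high. Without such genes, 8 of 55 members (14.5%) stood below an unadjusted p of 0.05 against 2.63% of 16506 genes. In the same set 4 of 55 (7.27%) did not overlap against 7.51%, close to the background with both directions pooled. These 4 all lay below, whereas most of the non-overlapping genes among all tested genes lay above. No excess is read from this split either. An exact permutation test of 3 against 3 libraries cannot go below 0.1, and 0.1 is the value that the 6 members had.

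In the fitted differences 19 members had a higher and 38 a lower mean in shRor1, with a median of -0.10 on the log2 scale, while 67.0% of all tested genes had a higher mean and their median was 0.055. This split changed when single libraries were left out. Without the first, the second or the third shCTL library it was 24 higher against 33 lower, 24 against 33 and 20 against 37. Without the first shRor1 library it was 18 against 39. Without the second shRor1 library it was 28 higher against 29 lower, and without the third it was 30 against 27. Quantile normalization moved the share of all genes with a higher mean to 50.5% and median ratio scaling to 44.6%, and the members were then at 18 higher against 39 lower in both.

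The members varied more between libraries of 1 condition than the genes in their range of level did. Those genes were not matched to the members in level within that range or in length. The median residual SD on the log2 scale was 0.553 for the 57 members and 0.167 for the 12618 tested genes with means between 0.612 and 43.0 TPM, the range of the members. The 44 H/ACA snoRNAs that passed the filter had a median residual SD of 0.428, with 14 higher, 30 lower, a median difference of -0.10, 5 of them (11.4%) at an unadjusted p below 0.05 and 0 called after adjustment. The median size of the difference between the conditions was 0.293 for the members, whatever its direction, and 0.091 for all tested genes. The spread was thus larger than in the genes of this range, and the difference larger than over all tested genes, a reference not limited to this range. Whether the difference exceeds what the spread alone would give was not tested.

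**Figure D2:**
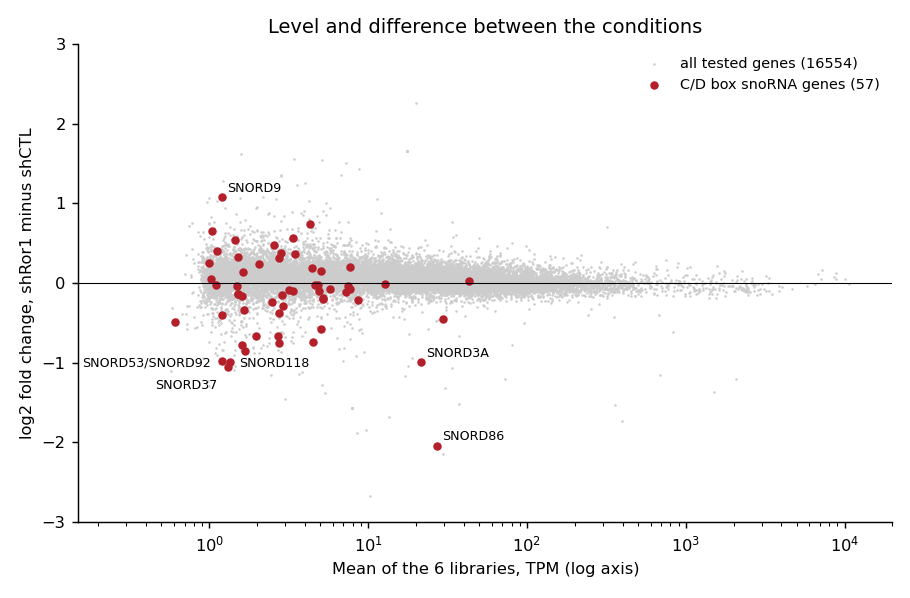
Mean TPM over the 6 libraries (x axis, log scale) against the fitted difference in log2(TPM + 1), shRor1 minus shCTL (y axis), for the 16554 tested genes (grey) and the 57 C/D box snoRNA genes (red). SNORD86 and SNORD3A stand below the other members of their level, and 2 genes, neither a member, lie outside the plotted range.

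SNORD36A, which guides methylation of the RNA of the small ribosomal subunit and lies in RPL7A, had the highest mean of the family. It was at 43.45, 41.83 and 37.68 TPM in shCTL against 36.29, 71.03 and 27.83 TPM in shRor1. The second shRor1 library was the highest and the third the lowest of all 6, so the spread within shRor1 (45.1 ± 22.9 TPM, SD, n = 3) spanned every shCTL value. Its difference was 0.024 ± 0.30 (SE) on the log2 scale.

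SNORD104, which guides methylation of the large subunit RNA, lies in the lncRNA gene SNHG25. It was at 38.45, 28.50 and 36.20 TPM in shCTL against 32.01, 19.71 and 23.83 TPM in shRor1. The second and the third shRor1 libraries lay below every shCTL library and the first lay within their range. Its difference was -0.45 ± 0.18 (SE), with an unadjusted limma p of 0.042 and an exact permutation p of 0.2. Without the second shRor1 library the difference was -0.295, with an unadjusted limma p of 0.136, and the p also exceeded 0.05 without the first or the third shCTL library or the third shRor1 library. Among the 10 members with the smallest p SNORD104 had the highest level.

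SNORD86 lies in the gene of NOP56, a core protein of the C/D box particle, and has no known methylation target. It was at 29.23, 33.16 and 45.83 TPM in shCTL against 37.76, 0.00 and 16.92 TPM in shRor1. The first shRor1 library was within the shCTL range, the second was listed at 0 and the third lay below that range, or 67, 0 and 25 steps. The difference of -2.04 ± 1.18 (SE), the lowest in the family, became -0.47 without the second shRor1 library. NOP56 itself was at 833.41 TPM in that library and at 674.39 to 938.58 TPM over all 6.

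SNORD3A and SNORD3B-2 code for U3, the most abundant snoRNA of the nucleolus, which is needed for the first cuts of the ribosomal precursor. SNORD3A was at 11.88, 73.94 and 10.88 TPM in shCTL against 10.26, 7.05 and 14.93 TPM in shRor1. The second shCTL library alone set the shCTL mean, and without it the difference of -0.996 ± 0.67 (SE) became -0.13. SNORD3B-2 was at 3.97, 3.93 and 3.03 TPM in shCTL against 2.79, 0.72 and 2.16 TPM in shRor1. All 3 of its shRor1 values lay below the shCTL values, with a difference of -0.75 ± 0.28 (SE) and an unadjusted p of 0.031, and without the second shRor1 library the difference was -0.42. The U3 genes are near-identical copies, and the annotated spans of 699 and 791 bases are longer than the RNA itself, so how reads were divided among the copies is uncertain. The other 2 U3 genes of the table, SNORD3B-1 and SNORD3C, did not exceed 0.38 TPM.

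SNORD78, which guides methylation of the large subunit RNA and lies in GAS5, a lncRNA gene known from growth arrest, was at 9.06, 16.80 and 10.67 TPM in shCTL against 8.93, 24.68 and 7.02 TPM in shRor1. The second library was the highest in both conditions, and the difference was -0.010 ± 0.43 (SE). SNORD83A in RPL3 ran from 5.61 to 10.87 TPM, SNORD17 in SNX5 from 5.14 to 9.73 TPM and SNORD100 in RPS12 from 4.17 to 13.54 TPM, and the groups overlapped in each. The plot of named members shows the crossing of the conditions in the upper part of the family.

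**Figure D3:**
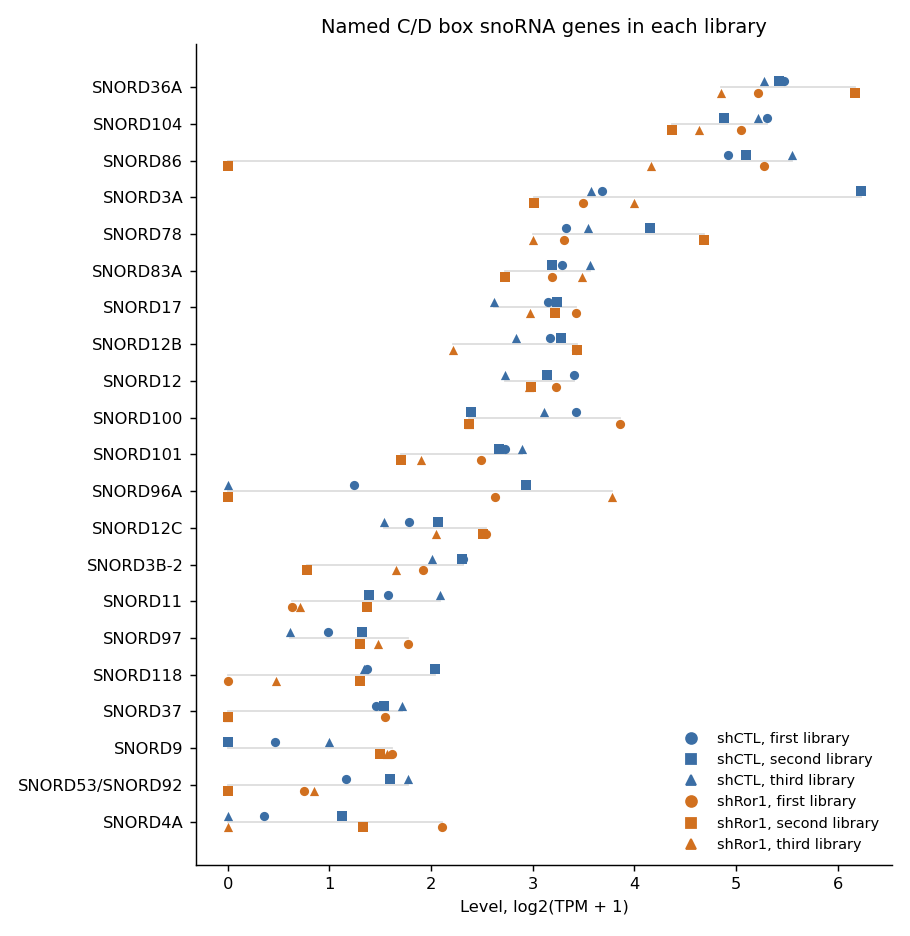
Level in log2(TPM + 1) (x axis) of the 21 named C/D box snoRNA genes (y axis, from the highest to the lowest mean) in each of the 6 libraries, with shCTL in blue, shRor1 in orange and the marker shape giving the library in table order. The conditions separate for SNORD101, SNORD3B-2, SNORD11, SNORD118, SNORD9 and SNORD53_SNORD92, and SNORD86 is at 0 in the second shRor1 library only.

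SNORD9, from an intron of the chromatin remodeller CHD8, had the smallest p of the family. It was at 0.38, 0.00 and 0.99 TPM in shCTL against 2.07, 1.82 and 1.96 TPM in shRor1. All 3 shRor1 libraries lay above all 3 shCTL libraries, with a difference of 1.07 ± 0.24 (SE), an unadjusted limma p of 0.0025 and an adjusted p of 0.984. In steps these values were 1, 0 and 2 against 5, 3 and 4. SNORD9 passed the filter through the shRor1 libraries alone, so a difference in this direction was built into its presence here.

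SNORD53_SNORD92, from an intron of WDR43, was the reverse case, at 1.24, 2.02 and 2.43 TPM in shCTL against 0.68, 0.00 and 0.80 TPM in shRor1. It passed the filter through the shCTL libraries alone, and its difference was -0.98 ± 0.26 (SE) with an unadjusted p of 0.0066. In steps it was 2, 3 and 3 against 1, 0 and 1.

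SNORD101 and SNORD100 share the host RPS12, the gene of a small subunit protein. SNORD101 was at 5.64, 5.38 and 6.45 TPM in shCTL against 4.63, 2.26 and 2.73 TPM in shRor1. All shRor1 values lay below the shCTL values, with a difference of -0.73 ± 0.21 (SE) and an unadjusted p of 0.0084. SNORD100 had a difference of -0.11 ± 0.44 (SE) and overlapping groups, and RPS12 had a difference of 0.021 ± 0.092 (SE).

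SNORD11 and SNORD70 share the host NOP58, the gene of another core protein of the particle. SNORD11, which guides methylation of the small subunit RNA, was at 1.99, 1.63 and 3.25 TPM in shCTL against 0.55, 1.59 and 0.64 TPM in shRor1. The shRor1 values lay below the shCTL values, the nearest pair being 1.63 and 1.59 TPM, with a difference of -0.78 ± 0.26 (SE) and an unadjusted p of 0.017. SNORD70 had a difference of 0.19 ± 0.37 (SE), and NOP58 was at 162.3 ± 15.1 TPM and 161.0 ± 14.2 TPM (SD, n = 3 each).

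U8 is needed for the processing of the large subunit RNAs, and variants of its gene SNORD118 cause a leukoencephalopathy with calcifications and cysts. SNORD118 was at 1.58, 3.10 and 1.53 TPM in shCTL against 0.00, 1.47 and 0.39 TPM in shRor1. The groups were separated by the gap between 1.53 and 1.47 TPM, with a difference of -0.99 ± 0.34 (SE) and an unadjusted p of 0.022. SNORD37 in EEF2 was at 1.75, 1.91 and 2.29 TPM in shCTL against 1.92, 0.00 and 0.00 TPM in shRor1. Its first shRor1 library was within the shCTL range, its values were 2 steps or none, and the difference was -1.06 ± 0.40 (SE) with an unadjusted p of 0.030.

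The host ZFAS1 has 3 kept members and is named here after their values were seen. SNORD12C was at 2.44, 3.19 and 1.91 TPM in shCTL against 4.81, 4.69 and 3.15 TPM in shRor1. The groups overlapped only in 3.19 against 3.15 TPM, and the difference was 0.57 ± 0.19 (SE) with an unadjusted p of 0.020. SNORD12B and SNORD12 had differences of -0.070 ± 0.32 (SE) and -0.033 ± 0.18 (SE), and ZFAS1 had one of -0.079 ± 0.14 (SE). Whether the 3 members differ from each other was not tested, and without the third shRor1 library all 3 were above 0 (0.73, 0.34 and 0.014).

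SNORD97, whose target is a transfer RNA rather than ribosomal RNA, lies in EIF4G2 and was at 0.98, 1.5 and 0.53 TPM in shCTL against 2.42, 1.46 and 1.78 TPM in shRor1. The second libraries of the conditions crossed, at 1.5 and 1.46 TPM, and the difference was 0.54 ± 0.22 (SE) with an unadjusted p of 0.037. SNORD96A and SNORD4A entered the named set by the size of their differences, 0.74 ± 1.03 (SE) and 0.65 ± 0.52 (SE). SNORD96A, in RACK1, was at 1.36, 6.66 and 0.00 TPM in shCTL against 5.18, 0.00 and 12.75 TPM in shRor1, so that both conditions ran from 0 upwards, and its difference ran from -0.078 to 1.81 when each library was left out. SNORD4A, in RPL23A, ran from 0.00 to 1.18 TPM in shCTL and from 0.00 to 3.30 TPM in shRor1, and its difference was 0.17 without the first shRor1 library, 1.22 without the third shRor1 library and 0.40 when the third shCTL library was left out.

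**Figure D4:**
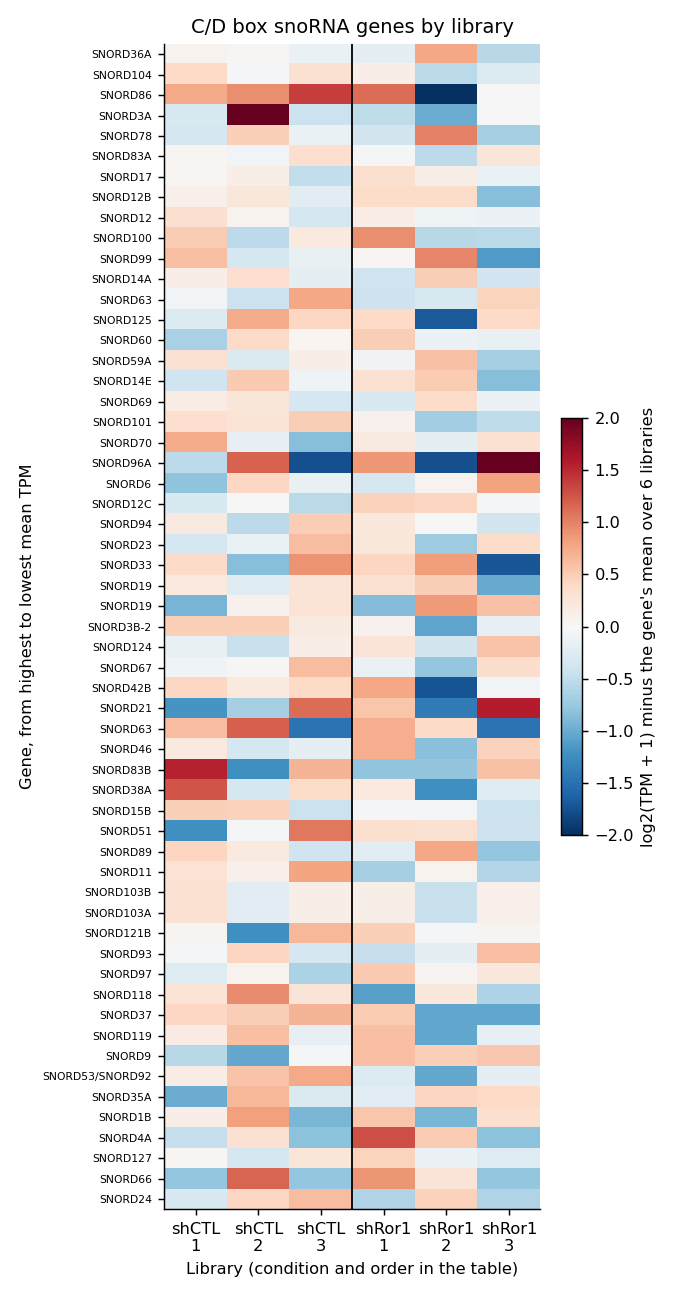
Level of each of the 57 C/D box snoRNA genes (rows, from the highest to the lowest mean TPM) in each of the 6 libraries (columns), as log2(TPM + 1) minus the mean of the gene over the 6 libraries, with colours capped at -2.0 and 2.0. In the second shRor1 column 21 members are lowest or tied for lowest, and neither condition has 1 colour throughout.

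Across the 57 members the libraries resembled each other less than they did across all genes. Pearson's r between libraries, a description across genes, ran from 0.44 to 0.79 over the members and from 0.984 to 0.993 over all tested genes. The second shRor1 library had a median r of 0.55 with the others, against 0.70 to 0.74 for each of the other 5. It was the lowest or tied for the lowest of the 6 for 21 members and listed 9 of them at 0, against 2 to 6 in the other libraries. It was also the library with the coarsest step, and the part of depth in these differences was not tested.

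Several known families were below the filter or listed at 0. The imprinted clusters SNORD113 to SNORD116 on chromosomes 14 and 15, known from brain, hold 115 genes of the table, of which 0 passed the filter and 0 were above 0 in any library. A further 4 genes with these names lie on other chromosomes, and 1 of them reached 0.71 TPM in 1 library. SNHG14, the annotated host of 71 genes of the family, had a mean of 0.085 TPM. MEG8, that of 33 genes, had a mean of 2.033 TPM, and MIR493HG, that of 18, was at 0.0 TPM. The family genes in these hosts were all at 0, also where the host was not. SNORD13 (U13) and SNORD22 were listed at 0 in all 6 libraries. Of the 6 genes of U14, SNORD14A in RPS13 was at 3.60 to 7.53 TPM and SNORD14E in HSPA8 at 2.05 to 6.92 TPM, with differences of -0.19 ± 0.26 (SE) and -0.026 ± 0.38 (SE), and the other 4 were at 0. In all, 278 of the 389 genes were at 0 in every library and 54 were above 0 without passing the filter.

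The filter ran through a crowded range. Ranked by the highest value but 2 of each gene, the members just inside it were SNORD24 at 1.02 TPM, SNORD66 at 1.04 TPM and SNORD127 at 1.04 TPM. Just outside were SNORD82 and SNORD41 at 0.99 TPM and SNORD20 at 0.95 TPM. SNORD82 and SNORD20 share the host NCL, and SNORD20 had 1.77, 2.57 and 0.77 TPM in shCTL and 0.00, 0.95 and 0.00 TPM in shRor1.

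The host genes were compared with their snoRNAs, since most snoRNAs leave the same precursor as the host transcript, while U3 and U8 are known to have promoters of their own. A host, a gene on the same strand whose span contains the snoRNA, was found for 55 members in 42 genes. Of these members 46 lay in protein-coding genes, 15 of them in 9 ribosomal protein genes, and 9 in lncRNA genes, while SNORD3A and SNORD3B-2 had none. The hosts had means of 8.46 to 3320 TPM with a median of 281.0. A member stood at a median of 1.04% of its host on this length-scaled level, and SNORD104 alone exceeded its host, with SNHG25 at a mean of 16.45 TPM. These shares need not hold for the mature snoRNAs. Over the 55 pairs the levels had Pearson's r of 0.12 and Spearman's rho of 0.15 on the log scale, as a description in which pairs share hosts and libraries.

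The hosts differed little between the conditions. With the same limma fit 0 of the 42 hosts were called after adjustment and 0 stood at an unadjusted p below 0.05, with adjusted p of at least 0.984. Their differences ran from -0.31 in SNHG25 to 0.24 in TMEM107, whose span holds SNORD118, with a median of -0.016, 14 higher and 28 lower. Over the 55 pairs the differences of snoRNA and host had Pearson's r of 0.069 and Spearman's rho of 0.12. In 47 pairs the difference of the snoRNA was the larger in size, whatever its direction. TMEM107 was at 11.6 ± 1.29 TPM in shCTL and 14.01 ± 2.63 TPM in shRor1 (SD, n = 3 each), the direction opposite to that of SNORD118.

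**Figure D5:**
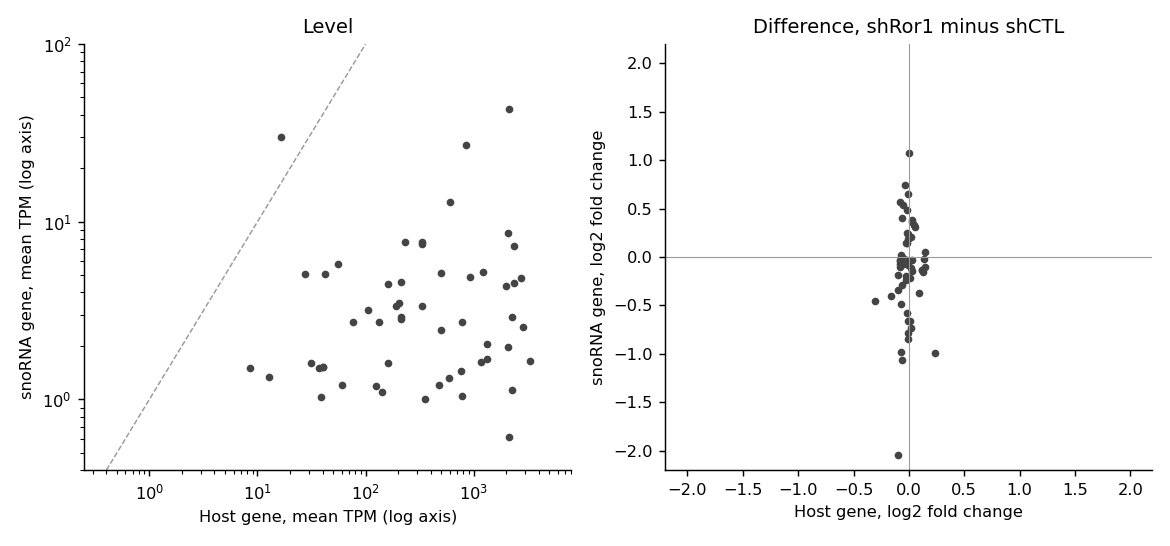
Left, mean TPM of the host gene (x axis, log scale) against mean TPM of the snoRNA gene (y axis, log scale) for 55 pairs, with a dashed line where both are equal. Right, log2 fold change of the host (x axis) against that of the snoRNA (y axis), shRor1 minus shCTL, on equal axes, where the hosts stay between -0.31 and 0.24 while the snoRNAs run from -2.04 to 1.07.

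Members of 1 host were not at 1 level. RPL7A holds 4 of the annotated genes, of which SNORD36A had a mean of 43.0 TPM, SNORD24 barely passed the filter and another was at 0 throughout. RPL4, with a mean of 3000.0 TPM, holds 4 and none passed. GNL3 holds 5 and 3 passed. The spans of 23 members, among them SNORD36A, SNORD86, SNORD78, SNORD12, SNORD12B, SNORD37, SNORD97 and SNORD118, overlap an exon of an annotated host transcript on the same strand, so that reads of the host could be counted for them or theirs for the host. These 23 had a median residual SD of 0.637 and 3 at an unadjusted p below 0.05, and the other 34 had a median residual SD of 0.457 and 7 below 0.05. The medians of their differences were -0.084 and -0.10.

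The proteins that bind, assemble and mature the C/D box particle were read from the same fit. Of the 27 genes on this list 25 were tested (not TAF9 and ZNHIT3), 12 with a higher and 13 with a lower mean in shRor1, with a median of -0.0014, 0 at an unadjusted p below 0.05 and 0 called after adjustment. FBL, the methyltransferase, had the smallest p of the list and was at 530.63, 502.86 and 486.57 TPM in shCTL against 495.99, 440.56 and 423.94 TPM in shRor1. Its first shRor1 library lay above the third shCTL library, and the difference was -0.16 ± 0.081 (SE) with an adjusted p of 0.984. ZNHIT6, an assembly factor, followed at 64.55, 66.97 and 63.08 TPM in shCTL against 69.0, 75.24 and 69.02 TPM in shRor1. Its shRor1 values all lay above its shCTL values, as did those of 6.48% of all tested genes. Its difference was 0.13 ± 0.071 (SE), with an unadjusted limma p of 0.107 and an adjusted p of 0.984.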

How the data were processed

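Total RNA (1000 ng) of 3 shCTL and 3 shRor1 samples of MDA-MB-231 was sequenced as single reads of 50 bases with a strand-specific kit (the labels name the molecule polyA RNA, the methods a total RNA kit). As the methods and processing notes state, the authors mapped reads to GRCh37 with STAR and Ensembl 73 and estimated abundances with RSEM 1.2.5. The deposited values are TPM, scaled by the authors for gene length and library total, so the depth is not in the table. The study lists mapped reads per sample, but the column names do not tie a column to a sample. For genes near the read length TPM depends strongly on the effective length used. All per-sample columns were used (0 left out), and no column holds the authors' own comparison. The header of all 3 control columns names DMSO and that of the shRor1 columns does not.

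Symbols matched 55022 of 57445 identifiers. Hosts, exons and sequences came from GENCODE 44 in its GRCh37 version, which is later than the annotation of the authors but on their build. Genes at 1 TPM or more in 3 or more libraries were tested on log2(TPM + 1) with limma 3.58.1 in R 4.3.3 (mean-variance trend, Benjamini-Hochberg adjustment over 16554 genes, threshold 0.05), and single genes also with a two-sided exact permutation test. Fold changes are on this scale and understate those of low genes. The fit was tested on simulated normal log2 values with the means and spreads of the tested genes. Such values lack the steps and zeros of the short members, so this test cannot tell how the fit performs for them. The members and gene lists were chosen with earlier results of these data known. Named were the 10 highest members, the 10 with the smallest p, the 5 largest differences in each direction, known special families, members next to the filter and their hosts. Alternatives were another pseudocount (0.1), other filters, no trend, array weights, sums by symbol, 3 other scalings and each library left out.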

Additional observations from a re-analysis of the deposited data

How the results depend on the processing

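No paired analysis was possible because no replicate number stands in the column names. Over 15 alternative fits no C/D box snoRNA, host gene or particle protein was called after adjustment, and the adjusted p of the 21 named members ran from 0.432 to 1.0. Over all genes the count of calls was 0, except for 1 without the third shRor1 library (range 0 to 1). The genes at an unadjusted p below 0.05 were 472, and 1363 without the filter, 227 at a mean of at least 5 TPM, 859 with array weights and 278 to 1720 when each library was left out. The members among them were 10, and 18 of 111 tested family genes without the filter, 1 of 15 at a mean of at least 5 TPM and 5 to 12 when each library was left out. The filters test other gene sets, and the cause of the remaining changes was not tested. The summed level in shRor1 was 84.5% of that in shCTL, 79.0% to 90.0% when each library was left out and 95.9% without the 5 highest members, an alternative chosen after the data were seen, as were the splits by exon overlap and by filter group. Of the 21 named members, 15 kept their direction in each fit that held them, and the fit at a mean of at least 5 TPM held only 10 of the 21. SNORD78 turned to 0.18 with array weights, and SNORD36A turned to -0.022 with quantile normalization and to -0.054 with median ratio scaling. When each library was left out, SNORD36A ran from -0.35 to 0.31, SNORD78 from -0.52 to 0.32, SNORD12B from -0.27 to 0.34, SNORD12 from -0.21 to 0.12, SNORD100 from -0.61 to 0.14 and SNORD96A from -0.078 to 1.81 on the log2 scale. The median of the members ran from -0.19 to 0.02. Most members rest on a few steps per library, and the part of depth in the lack of calls was not tested.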

Other observations

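Below the filter, 1 C/D box gene had a mean of 3.43 TPM, above the median of the members. SNORD58B in RPL17, which like the next gene was picked out after its values were seen, was at 0.00, 0.00 and 10.45 TPM in shCTL against 10.14, 0.00 and 0.00 TPM in shRor1. It was thus present in 1 library of each condition at over 10 TPM and listed at 0 in the other 4. Its span overlaps an exon of RPL17 on the same strand. SNORD121A in UBAP2, also below the filter, was at 0.00, 0.61 and 0.74 TPM in shCTL against 1.85, 0.90 and 2.18 TPM in shRor1, so that its groups did not overlap. The same held for others below the filter, in both directions. Among them, SNORD73 was lower in shRor1, and SNORD71 and SNORD88A were higher. The share of such genes below the filter was not counted.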
